A study of Danio rerio with 6 samples.

Results

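Of the 31484 genes in the count tables, 368 lay within 10 Mb of TET2 on chromosome 1 of the zebrafish genome build GRCz10. They were chosen by position alone: every gene whose span touched the interval from base 15662646 to base 35693594, with TET2 itself left out. TET2 spans chr1:25662646-25693594 on the plus strand, so 199 of these neighbours lay at lower and 169 at higher coordinates. The other 990 genes of chromosome 1 served as the comparison on the same chromosome. RNA was sequenced from the kidney marrow of adult fish aged 3 to 5 months, in 3 wild type (tet2 wt/wt) and 3 tet2 -/- libraries. The second group is called tet2 mutant here. The marrow was dispersed into a suspension and passed through a 70 micron filter, with no sort of the cells stated. The labels name neither the allele, the strain, the sex, nor the number of fish in a library, and nothing says that the libraries came from separate fish. The p-values therefore set the genotype difference against the spread between these libraries within a genotype, not between fish known to be separate.

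Tet2 is an enzyme that oxidises 5-methylcytosine in DNA, a first step in removing that mark, and loss of TET2 is a common event in human clonal blood disorders. Kidney marrow is the blood-forming tissue of adult zebrafish and lies between the kidney tubules. A mutant line is kept by selecting for 1 allele, and linked stretches of the chromosome from the founder fish travel with that allele through crosses. Differences between fish near a mutated gene can thus come with the chromosome that carries it, which makes the neighbours a group of their own in any mutant comparison. The count tables hold no sequence variants, so no value here shows which founder chromosome a fish carried.

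Libraries held between 41285460 and 49229143 counts, and 3 counts, taken as the floor of detection, equalled 0.0593 to 0.0716 CPM (counts scaled to library size, after TMM factors). This floor covers counting error only. The blood lineages were present in every library: summed over 6 erythroid genes the level was 10298 to 14531 CPM in wild type and 7702 to 12991 CPM in the mutant, and over 4 neutrophil genes it was 8926 to 19401 against 10017 to 14061 CPM. Other tissues were present too. The summed level of 10 kidney tubule genes was 722 to 1109 CPM in wild type and 409 to 557 CPM in the mutant. That of 13 skeletal muscle genes was 213 to 288 CPM in wild type, against 42.3 to 95.5 CPM. Egg envelope genes (12 measured) had a summed level of 6.28, 6.21 and 807 CPM in wild type 1, 2 and 3, against 576, 360 and 3461 CPM in mutant 1, 2 and 3. Liver genes (7 measured) had one of 36.7, 420 and 89.4 CPM, against 16.2, 1344 and 50.7 CPM. None of the genes in these 6 lists was at 0 in all libraries. In such bulk RNA, fewer cells of a type and less RNA per cell cannot be told apart.

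TET2 transcripts were still present in the mutant. Wild type held 48.1, 52.5 and 48.1 CPM of TET2, and the mutant held 51.1, 45.1 and 30.5 CPM. The genotypes overlapped, and the log2 fold change (mutant minus wild type throughout) was -0.23 (SE 0.20, 95% interval -0.70 to 0.24, adjusted p = 0.696, edgeR quasi-likelihood test with Benjamini-Hochberg adjustment over all genes). Whole-gene counts do not show whether these transcripts can make the enzyme.

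Of the 368 neighbours, 249 had enough counts to be tested. The other 119 were too low for the test: 30 of them had no count in any library, and none averaged more than 0.474 CPM. Among the tested neighbours, 20 were at 100 CPM or more, 145 at 10 CPM or more and 36 under 1 CPM. Together the neighbours took between 1.24% and 1.36% of the counts of a library, and 301 to 321 of them had at least 1 count there. Reads of 55 tested neighbours are less certain, since their spans overlap another gene, for 36 of them on the other strand.

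Few neighbours differed between the genotypes. At an adjusted p under 0.05, 2 of the 249 tested neighbours (0.803%) differed, PRSS12 and GTF2F2, and both were lower in the mutant. The background was 0.301% of all 21893 genes tested (0.206% lower and 0.0959% higher), and the other chromosome 1 genes gave 4 of 738 (0.542%). Both differing neighbours lay more than 5 Mb from TET2. None of the 131 tested genes within 5 Mb passed in edgeR with all 6 libraries and no block. Of these, 7 reached an unadjusted p under 0.05 (5.34%, against 11.9% of all genes). Within 5 Mb, DESeq2 called 3 of 148 genes (2.03%, against 4.13% of all). Pairing the libraries by number in edgeR (the replicate block) called 2 (1.53%, against 2.14%). Without both libraries numbered 3, edgeR called 4 (3.05%, against 1.43%), UCHL1 and the 3 genes of the qdprb locus (qdprb.3, qdprb.4 and QDPR). The libraries left in that fit still differed by genotype in summed egg level, as given above.

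**Figure D1:**
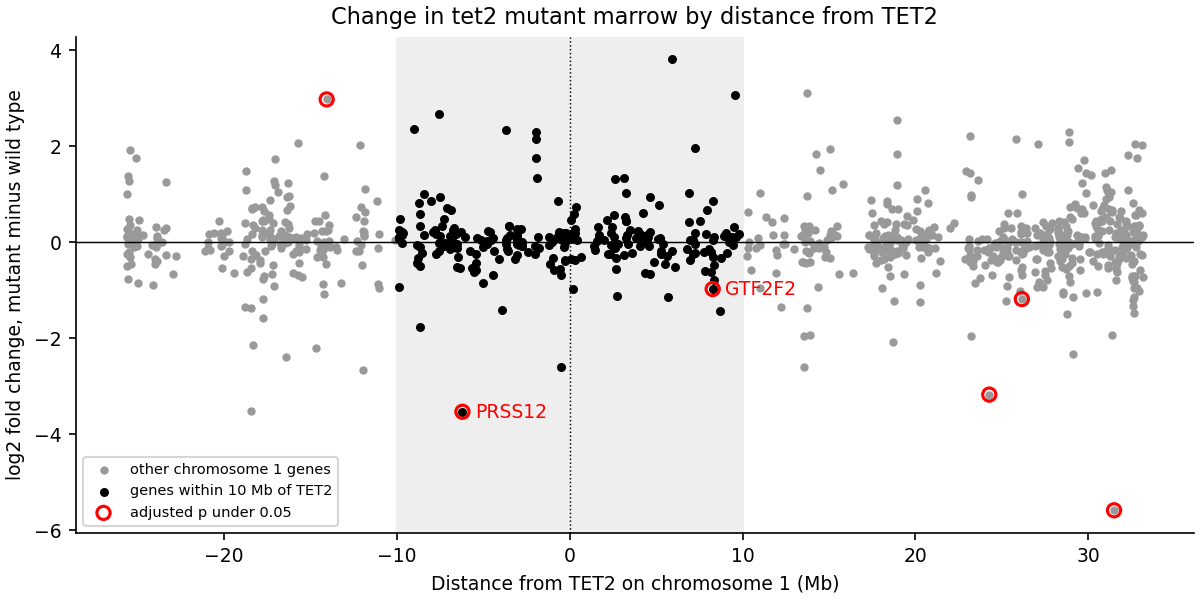
Log2 fold change (mutant minus wild type) of each tested chromosome 1 gene against its distance from TET2 in Mb, negative at lower coordinates. Black points in the shaded band are the 249 tested neighbours, grey points the other 738 tested genes of the chromosome, and red rings the 6 genes with an adjusted p under 0.05, of which 2 are neighbours.

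PRSS12, the gene of neurotrypsin, a secreted serine protease known from synapses, was the neighbour that fell most. It spans chr1:19376401-19449424, 6.21 Mb from TET2 towards lower coordinates. Its level was 3.94, 7.69 and 7.49 CPM in wild type and 0.400, 0.472 and 0.771 CPM in the mutant. Every mutant library was below every wild type library, with means of 6.37 ± 2.11 and 0.548 ± 0.197 CPM (SD, n = 3 libraries each). The log2 fold change was -3.53 (SE 0.42, 95% interval -4.53 to -2.53, edgeR adjusted p = 0.0430). The tested genes on its flanks did not move with it: METTL14, part of the enzyme that places N6-methyladenosine in RNA, had a log2 fold change of 0.21 (SE 0.20). NDST4, a heparan sulfate sulfotransferase, had one of 0.12 (SE 0.23). Neither passed the test.

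GTF2F2, a subunit of the general transcription factor TFIIF that works with RNA polymerase II at promoters, fell by a smaller amount at a higher level. It spans chr1:33962805-33974335, 8.27 Mb from TET2 towards higher coordinates. Wild type libraries held 64.5, 77.6 and 74.7 CPM, and mutant libraries 37.5, 36.9 and 36.0 CPM. The 3 mutant values were almost equal and all lay below the lowest wild type value, with means of 72.3 ± 6.86 and 36.8 ± 0.770 CPM (SD, n = 3 each). The log2 fold change was -0.97 (SE 0.12, 95% interval -1.25 to -0.70, edgeR adjusted p = 0.0430). A gene ID on chromosome 9 carries the same symbol but averaged only 0.206 CPM in wild type and 1.38 CPM in the mutant. On its flanks the log2 fold change was 0.06 (SE 0.13) for GPALPP1 and -0.30 (SE 0.13, adjusted p = 0.415, edgeR) for TPT1.

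Neither gene passed once any 1 library was left out. Over all genes, only 2 to 15 passed in these fits (0.0088% to 0.067%), against 66 (0.301%) with all 6 libraries. In these fits the log2 fold change of PRSS12 lay between -3.88 and -3.35 with an edgeR adjusted p from 0.0797 to 0.198, and that of GTF2F2 between -1.06 and -0.92 with an adjusted p from 0.0866 to 0.198. Without both libraries numbered 3, the richest in egg transcripts, PRSS12 passed (adjusted p = 0.0423) and GTF2F2 did not (0.0884, edgeR). The summed egg level still differed by genotype in the libraries left. It was 6.28 and 6.21 CPM in wild type 1 and 2, against 576 and 360 CPM in mutant 1 and 2. The summed kidney tubule and muscle genes were lower in the mutant alongside these 2 genes, by the levels given above. Of the 10 kidney tubule genes 9 had a log2 fold change below 0, and SLC12A3 had one of 0.15 (SE 0.29). In edgeR 2 of the 10 passed, against 0.301% of all genes tested. All 10 tested muscle genes were below 0, and 0 passed. The part of kidney tubule and muscle RNA in the falls of PRSS12 and GTF2F2 was not tested.

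**Figure D2:**
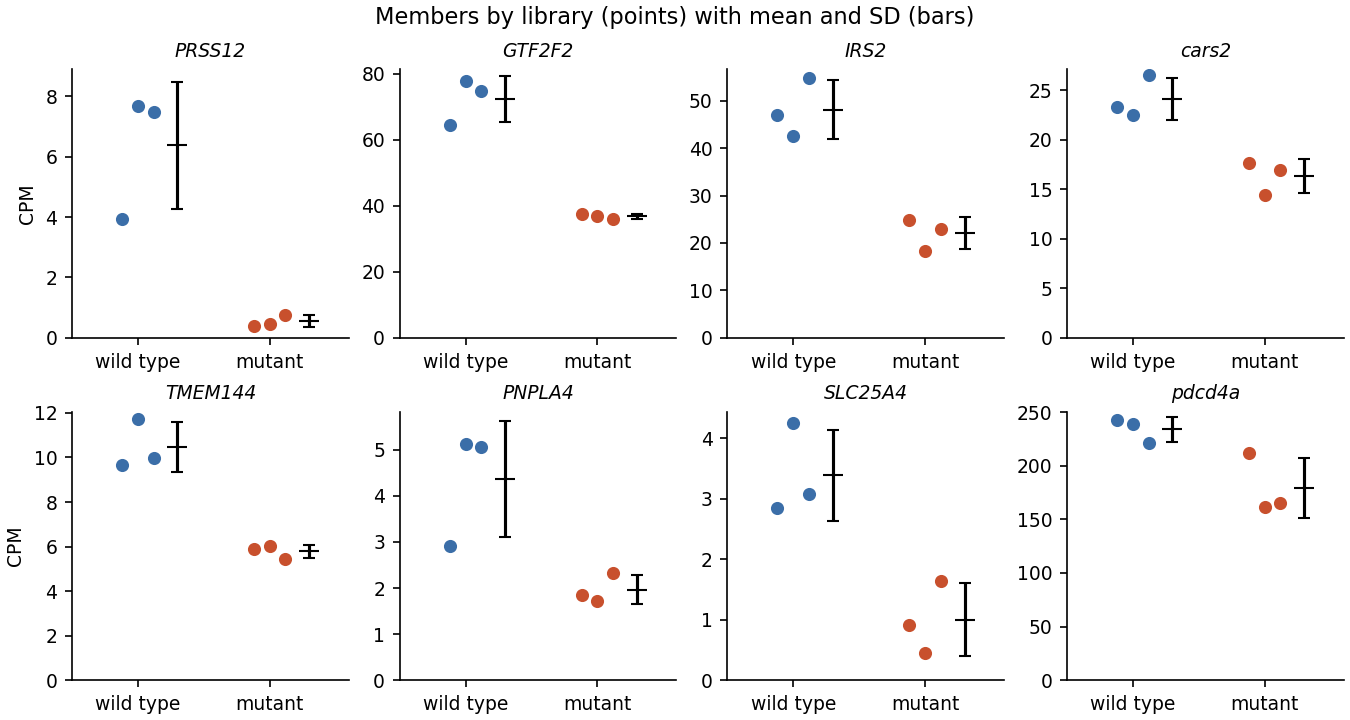
CPM of 8 neighbours by genotype, with each library as a point and the mean with its SD beside the points (n = 3). The 8 genes were picked with their values known, and in all of them every mutant library lies below every wild type library. Of all genes tested, 10.3% were lower in the mutant without overlap. Not shown are si:dkey-6o1.2, which was higher in the mutant, and FABP2, whose genotypes overlapped. MND1 and G3BP2, also lower without overlap and ahead of pdcd4a in order of p, are not shown either. PRSS12 averages 0.548 against 6.37 CPM and GTF2F2 36.8 against 72.3 CPM.

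The next neighbours in order of p were also mostly lower in the mutant, without passing the test. Of the 23 with the smallest p after PRSS12 and GTF2F2, 16 had a log2 fold change below 0, at edgeR adjusted p from 0.0637 to 0.508. Their genotypes did not overlap in 17, against 18.2% of all genes tested, but the choice by p favours such genes. IRS2, an adaptor that passes insulin and IGF signals from their receptors, came first. It spans chr1:28407609-28424462, 2.71 Mb from TET2, and had 46.9, 42.6 and 54.8 CPM in wild type and 24.9, 18.3 and 22.9 CPM in the mutant. The log2 fold change was -1.13 (SE 0.16, adjusted p = 0.0637, edgeR), and it passed with the replicate block (0.0251). For a second IRS2 gene on chromosome 9 the log2 fold change was -0.67 (SE 0.29, adjusted p = 0.431, edgeR).

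The span of IRS2 overlaps that of cars2, a mitochondrial cysteinyl-tRNA synthetase, on the same strand, so that reads from the shared stretch are of uncertain origin. The level of cars2 was 23.3, 22.5 and 26.5 CPM in wild type and 17.6, 14.4 and 17.0 CPM in the mutant. Its genotypes did not overlap either, and its log2 fold change was -0.56 (SE 0.14, adjusted p = 0.181, edgeR). LIG4, the DNA ligase of end joining, follows on the same strand at 2.77 Mb and had a log2 fold change of -0.04 (SE 0.13).

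TMEM144, a membrane protein, lay 5.03 Mb from TET2 towards lower coordinates. Its level was 9.68, 11.8 and 9.99 CPM in wild type and 5.87, 6.04 and 5.44 CPM in the mutant, a log2 fold change of -0.86 (SE 0.17, edgeR adjusted p = 0.112). A second TMEM144 gene, on chromosome 14, went the other way at 2.01 (SE 1.64, adjusted p = 0.683, edgeR). PNPLA4, a lipid hydrolase, had 2.91, 5.13 and 5.06 CPM in wild type and 1.85, 1.72 and 2.33 CPM in the mutant, a log2 fold change of -1.15 (SE 0.31, adjusted p = 0.215, edgeR). SLC25A4 encodes an ADP/ATP carrier of the mitochondrial inner membrane that is typical of muscle in mammals. It had 2.85, 4.25 and 3.07 CPM in wild type and 0.905, 0.451 and 1.64 CPM in the mutant (log2 fold change -1.76, SE 0.49, adjusted p = 0.231, edgeR). The summed muscle genes were lower in the same libraries, and their part in this value was not tested. FABP2, the intestinal fatty acid binding protein 0.502 Mb from TET2, had 0.205, 1.55 and 2.06 CPM in wild type and 0.168, 0.215 and 0.237 CPM in the mutant. Wild type library 1 was as low as the mutant libraries, so the genotypes overlapped (log2 fold change -2.60, SE 0.80, adjusted p = 0.272, edgeR).

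Smaller differences stood among well expressed genes. MND1, a partner of the meiotic recombination machinery, was at 32.1, 25.7 and 23.4 CPM in wild type and 20.4, 19.2 and 19.8 CPM in the mutant (log2 fold change -0.45, SE 0.15, adjusted p = 0.309, edgeR). The tumour suppressor pdcd4a, known in mammals as a brake on translation, was at 243, 239 and 221 CPM in wild type and 212, 161 and 165 CPM in the mutant (-0.38, SE 0.14, adjusted p = 0.355, edgeR). The others with a lower mutant value were TLL1, SPOCK3, frmpd1a and zgc:172122 at log2 fold changes of -0.78 to -0.54, and G3BP2, MXD4, TPT1 and RPL9 at -0.38 to -0.27.

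The 7 neighbours of this order that were higher in the mutant were RAPH1, CHST10, ptprdb, QDPR (ENSDARG00000037378), kitb, EXOSC9 and si:dkey-6o1.2. The first 6 had log2 fold changes of 0.32 to 0.72. Genes with the same symbols, RAPH1 on chromosome 9 and QDPR on chromosome 14, had -0.15 (SE 0.33) and -0.86 (SE 0.29). The other QDPR gene of chromosome 1 had 2.15 (SE 1.95). In ptprdb, a receptor tyrosine phosphatase gene, mutant library 2 stood at 79.9 CPM against 49.0 and 31.2 CPM in the other mutant libraries and 27.5 to 35.9 CPM in wild type. The kitb gene, a relative of the stem cell factor receptor KIT, had 0.706, 1.03 and 1.02 CPM in wild type and 1.24, 1.87 and 1.30 CPM in the mutant (log2 fold change 0.68, SE 0.32, adjusted p = 0.466, edgeR). The unnamed gene si:dkey-6o1.2 was at or under the floor in all wild type libraries (0.0455, 0.0239 and 0 CPM) and at 0.337, 0.301 and 0.435 CPM in the mutant. Its adjusted p was 0.0970 in edgeR and 0.0233 in DESeq2, where it was the 1 higher neighbour called. It had enough counts for the edgeR filter only through the mutant libraries, where it was high, so these p-values are description only.

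The genes that stand closest to TET2 had no difference past the test in edgeR or DESeq2. An unadjusted p under 0.05 in edgeR was reached by 1 of the 10, G3BP2. Of all genes tested, 0.301% passed in edgeR and 4.13% in DESeq2, and 11.9% had an unadjusted p under 0.05 in edgeR. Of the 5 nearest tested genes on each side, 7 had a log2 fold change above 0 and 3 below, the values ran from -0.38 to 0.46, and the adjusted p from 0.353 to 0.986 (edgeR). PPA2, the mitochondrial pyrophosphatase, starts 1.85 kb beyond the end of TET2 on the opposite strand. It was at 20.2, 15.9 and 15.6 CPM in wild type and 18.6, 21.0 and 17.6 CPM in the mutant, a log2 fold change of 0.15 (SE 0.16, 95% interval -0.23 to 0.52). ARHGEF38, 24.2 kb away, averaged 1.68 ± 0.718 and 1.90 ± 0.0307 CPM (SD, n = 3).

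INTS12, a subunit of the Integrator complex that processes small nuclear RNAs, lay 51.3 kb away. It was at 19.8, 15.8 and 22.6 CPM in wild type and 21.0, 21.4 and 37.5 CPM in the mutant, with mutant library 3 alone above the wild type range (log2 fold change 0.46, SE 0.27). In 1 gene of these 10 the genotypes did not overlap, against 18.2% of all genes tested. This was G3BP2, a stress granule protein 57.7 kb away. It had 19.3, 19.3 and 20.03 CPM in wild type and 14.1, 15.7 and 16.4 CPM in the mutant (log2 fold change -0.34, SE 0.13, edgeR adjusted p = 0.353). A second G3BP2 gene, on chromosome 23, had a log2 fold change of 0.18 (SE 0.13, adjusted p = 0.667, edgeR). USO1, a tethering factor of the Golgi at 79.8 kb, had a log2 fold change of 0.06 with a 95% interval of -0.19 to 0.32.

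On the other side the nearest tested genes began at 225 kb. They were cdkn2a/b, a gene of the family of cell cycle inhibitors that block CDK4 and CDK6 in mammals, at 0.254 ± 0.107 and 0.262 ± 0.102 CPM, and MTAP, the methionine salvage enzyme, at 50.8 ± 5.75 and 57.7 ± 0.761 CPM (SD, n = 3). The low counts of cdkn2a/b left an interval of -1.17 to 1.27 on the log2 scale, the widest of the 10. The E3 ligase gene toporsa, the complex I subunit gene NDUFB6 and MXD4, a MAX partner that represses MYC targets, had log2 fold changes of 0.09, -0.01 and -0.38.

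**Figure D3:**
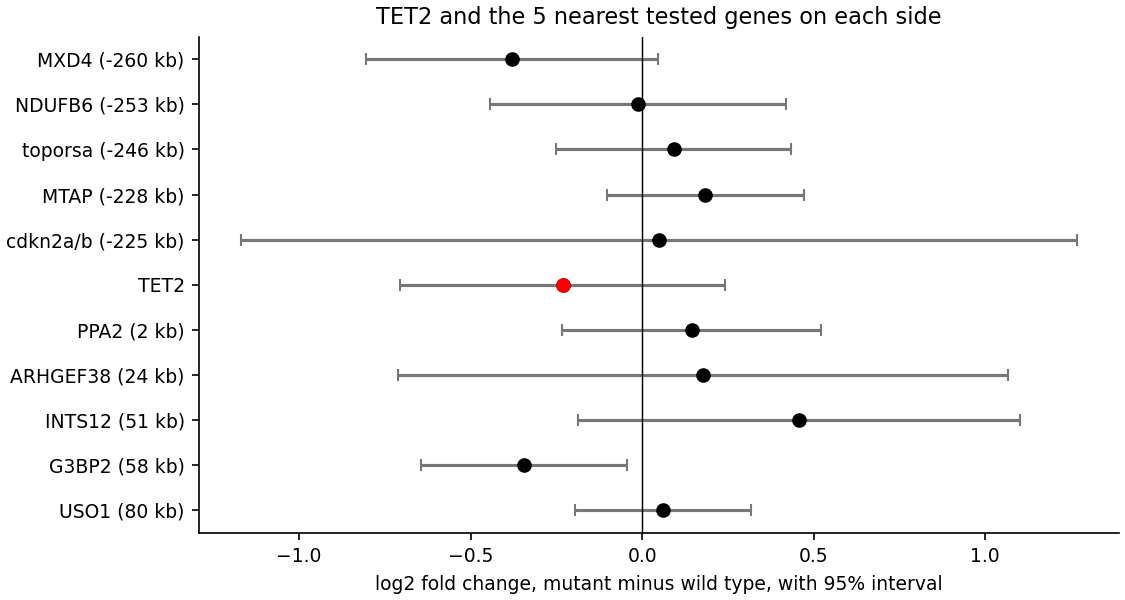
Log2 fold change (mutant minus wild type) with its 95% interval for TET2 (red) and the 5 nearest tested genes on each side (black), ordered by position. Only the interval of G3BP2 leaves out 0, and none of the 11 genes passed the test. Of all genes tested, 11.9% had an unadjusted p under 0.05 (edgeR).

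Part of this neighbourhood is shared with humans. Of 49 genes listed for their place near TET2 on human chromosome 4, 41 were measured in zebrafish under that symbol and 22 of these had a copy on chromosome 1, but only 5 within 10 Mb of TET2. Besides PPA2, ARHGEF38 and INTS12 these were CXXC4 and DNAJB14. CXXC4 encodes a CXXC zinc finger protein known as IDAX, whose zinc finger is thought to have split off from an ancestral Tet2 gene in vertebrates. It lay 61.6 kb from TET2 at 0, 0.0239 and 0.133 CPM in wild type and 0.274, 0.0430 and 0.0988 CPM in the mutant, near the floor, and was not tested. DNAJB14, a chaperone of the endoplasmic reticulum, lay 1.48 Mb away and had a log2 fold change of -0.16 (SE 0.17). Of the 9 measured genes of the TET family and its partners in DNA demethylation, none is a neighbour. Among these 9, 6 had a log2 fold change below 0, and the median was -0.07. The list also holds wt1b, at -0.07, and nanog, the highest at 2.07 (SE 1.67, adjusted p = 0.679, edgeR).

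Part of the neighbours were sorted into role groups by hand, with the values known. These groups held 1 edgeR call in all, GTF2F2, where 0.301% of all genes tested passed. The 14 genes of cell division and DNA maintenance had a median log2 fold change of 0.04, 9 of them above 0. In this group SMC2 and NCAPG, subunits of condensin, averaged 165 and 136 CPM in wild type with log2 fold changes of 0.04 (SE 0.17) and -0.07 (SE 0.13). PDS5A, a cohesin regulator, had a log2 fold change of 0.04 (SE 0.14). The 10 RNA processing genes had a median of 0.15, with the exosome subunit EXOSC9 at 0.47 and the m6A factor ZC3H13 at 0.08. Of the 12 genes of transcription, 8 had a log2 fold change below 0 and the median was -0.12. GTF2F2 alone passed the test (8.33%, against 0.301% of all genes tested), in a group sorted with the values known. GTF2E2, a subunit of TFIIE, another general factor of RNA polymerase II, had a log2 fold change of 0.16 (SE 0.13).

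The 9 genes of the ribosome and translation had a median of -0.25. In 4 of them the genotypes did not overlap, all lower, against 10.3% of all genes tested that were lower without overlap. The group was sorted with the values known, so this comparison is not a test. The ribosomal protein genes RPS3A and RPL9 and the translationally controlled TPT1 were the neighbours with the highest level per length, at 1082, 840 and 1145 CPM per kilobase. TPT1 was at 2687, 2459 and 2326 CPM in wild type and 2296, 1911 and 1855 CPM in the mutant, every mutant value under the lowest wild type value. RPL9 was at 1975, 1693 and 1580.4 CPM in wild type and 1559.9, 1477 and 1316 CPM in the mutant. Their log2 fold changes were -0.30 (SE 0.13) and -0.27 (SE 0.13), that of RPS3A was -0.25 (SE 0.14), and none passed (adjusted p from 0.415 to 0.543, edgeR). The span of TPT1 overlaps 5 other gene IDs on its strand, 2 of them named SNORD58, a small nucleolar RNA, so its reads are less certain.

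None of the 9 neighbours with a role in blood and immunity passed in edgeR or DESeq2, against 0.301% and 4.13% of all genes tested. An unadjusted p under 0.05 in edgeR was reached by 0 of them, against 11.9% of all, and their median log2 fold change was 0.06. In 2 of the 9 the genotypes did not overlap, both higher, against 7.88% of all genes tested that were higher without overlap. The group was sorted with the values known and is small, so these shares are not a test. The erythroid nuclear factor hemgn, 281 kb from TET2 and overlapping trmo on the other strand, was at 340, 405 and 368 CPM in wild type and 350, 298 and 216 CPM in the mutant (log2 fold change -0.36, SE 0.19, adjusted p = 0.518, edgeR). It had the lowest value in mutant library 3, which also had the lowest sum of erythroid genes, 7702 CPM. The gene hemgn is itself part of that sum. PAX5, the B cell identity factor, averaged 8.19 ± 1.90 and 8.51 ± 1.90 CPM. The viral RNA sensor tlr3 held 9.63 ± 0.158 and 10.7 ± 0.449 CPM (SD, n = 3), a small difference in which every mutant library was higher (log2 fold change 0.16, SE 0.14, adjusted p = 0.709, edgeR).

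The 8 signalling genes had a median of -0.10, with IRS2 lowest and SMAD1, which carries BMP signals, at -0.06. The 8 genes of the ubiquitin system had a median of 0.17, the 13 of mitochondria and metabolism one of -0.01 and the 7 of cilia one of -0.14. A last group of 11 receptors and ligands of the nervous system and of development, among them nicotinic receptor subunits and FGF8, was not tested at all, at means of 0.00727 to 0.210 CPM. By level per length, the other 5 of the 8 highest neighbours were si:dkey-27h10.2, ANP32B, hemgn, anxa5b and ASAH1, at 89.8 to 161 CPM per kilobase, with log2 fold changes of -0.36 to 0.18.

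The median absolute log2 fold change was 0.21 among the 33 tested genes within 1 Mb, 0.15 among the 17 at 1 to 2 Mb, 0.18 among the 81 at 2 to 5 Mb and 0.23 among the 118 at 5 to 10 Mb. Beyond the window it was 0.25 for the 295 genes at 10 to 20 Mb and 0.27 for the 443 farther away. The sides differed there: beyond 20 Mb it was 0.15 for the 77 genes at lower coordinates, as small as in the lowest bin of the window, and 0.30 for the 366 at higher ones. The bin at 1 to 2 Mb is thin. The median log2 fold change was 0.06, 0.08, 0.05 and 0.04 in the 4 bins of the window, 0.03 at 10 to 20 Mb and -0.00 beyond. Within 5 Mb, 79 of the 131 tested genes were above 0 and 52 below. Without both libraries numbered 3 these counts were 69 and 62, and with the summed egg level as a covariate 68 and 63. Leaving out 1 library gave from 67 and 65 without wild type 2 to 81 and 56 without wild type 1. Over all genes tested, with all 6 libraries, 11361 were above 0 and 10532 below. From 5 to 10 Mb 61 were above and 57 below, and beyond 20 Mb 221 and 222.

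At weaker thresholds the window had lower shares than the other chromosome 1 genes as a whole, though some other stretches had shares as low. At an unadjusted p under 0.05 stood 16 neighbours (6.43%), 2 higher and 14 lower, against 92 of the other chromosome 1 genes (12.5%) and 11.9% of all genes tested (5.0% higher and 6.93% lower). The genotypes did not overlap for 28 neighbours (11.2%), 9 higher and 19 lower, against 135 (18.3%) of the other chromosome 1 genes and 18.2% of all (7.88% higher and 10.3% lower). A fitted change of at least 2-fold was seen in 22 (8.84%), 15 higher and 7 lower, against 12.3% and 11.1%. For 156 neighbours (62.7%) the 95% interval lay within a 2-fold change in either direction, against 50.5% of the other chromosome 1 genes and 53.6% of all genes. The share at an unadjusted p under 0.05 was 9.09%, 5.88%, 3.70% and 7.63% in the 4 bins of the window, then 11.2% and 13.3%. Along the chromosome outside the window it was 7.69% at 30 to 25 Mb and 7.89% at 25 to 20 Mb towards lower coordinates, and 5.68% at 15 to 20 Mb towards higher ones. It was highest at 30 to 35 Mb towards higher coordinates, at 18.5% of 135 genes. No test of these shares was made, since genes are not independent replicates.

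**Figure D4:**
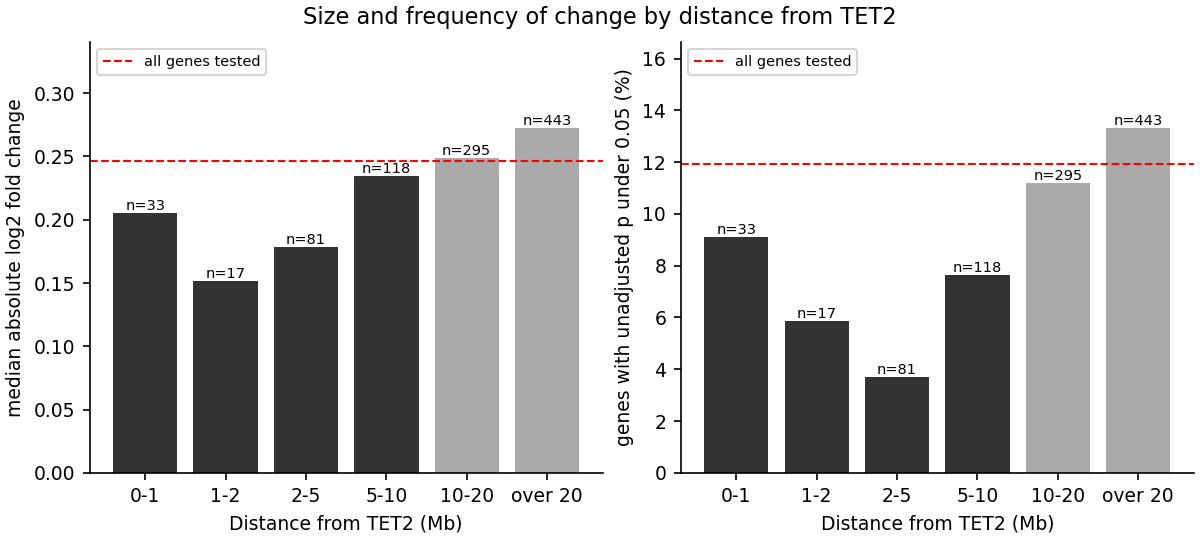
Median absolute log2 fold change (left) and percentage of genes with an unadjusted p under 0.05 (right) by distance from TET2 in Mb, with the number of tested genes above each bar; black bars lie within 10 Mb, grey bars beyond, and the dashed line is the value over all genes tested. Every black bar is below the dashed line, with a right-hand low of 3.70% at 2 to 5 Mb.

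Level and spread differed between the sets as well. The median level was 14.5 CPM for the neighbours, 9.84 CPM for the other chromosome 1 genes and 8.70 CPM for all genes. The median SD between libraries of a genotype, on the log2 scale, was 0.23 in wild type and 0.24 in the mutant for the neighbours, against 0.28 and 0.30 for the other chromosome 1 genes and 0.26 and 0.28 for all genes. Among genes at 10 CPM or more the median absolute log2 fold change was 0.16, 0.16 and 0.15 for the 3 sets. At that level 6.21% of neighbours had an unadjusted p under 0.05, against 11.7% and 9.71%. Over all tested genes of the 3 sets, the median absolute log2 fold change was 0.21, 0.26 and 0.25, in each set near its median SD. An SD of single libraries is not the error of a difference between genotype means, so no conclusion is drawn from this.

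The 4 other chromosome 1 genes that passed lay farther off, at 14.1 Mb towards lower coordinates (cplx2a, log2 fold change 2.98) and at 24.3, 26.2 and 31.5 Mb towards higher ones (herc56.1 at -3.17, acy3.2 at -1.18 and si:ch211-114l13.11 at -5.58).

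A set of 14 neighbours (5.62%) varied 8-fold or more between libraries of the same genotype, after 0.1 CPM was added to each value. The share was 3.39% of all genes tested and 4.61% of the other chromosome 1 genes. The added 0.1 CPM keeps some low genes out of the set. Such a gene was FABP2, highest in both libraries numbered 3 but lower in the mutant. In 9 of them both libraries numbered 3 were the highest of their genotype, as they were for the summed egg genes, and all 9 had a log2 fold change above 0. They include UCHL1, a ubiquitin hydrolase abundant in neurons and in egg cells of mammals, the claudin gene cldng, the thymosin gene tmsb5 and the locus of qdprb.3, qdprb.4 and QDPR (ENSDARG00000086859). The 3 genes of that locus overlap on 1 strand and may share reads.

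The level of UCHL1 was 2.87, 1.96 and 51.6 CPM in wild type libraries 1, 2 and 3 and 40.6, 29.6 and 215 CPM in the mutant. That of cldng was 11.4, 11.3 and 89.3 against 70.5, 39.6 and 325 CPM, and that of tmsb5 was 0.228, 0.215 and 34.5 against 32.8, 17.7 and 172 CPM. The order of the 6 libraries in each was close to that of the summed egg genes, with wild type 1 and 2 lowest and mutant 3 highest. The log2 fold change of UCHL1 was 2.34 (SE 1.41, adjusted p = 0.578, edgeR). With the replicate block UCHL1, cldng and zgc:152968 passed at adjusted p of 0.0267, 0.0171 and 0.0267 (edgeR). With the summed egg level as a covariate the log2 fold change was 0.03 for UCHL1, -0.25 for cldng and 0.38 for zgc:152968. The summed egg level was itself higher in the mutant library of each number, so this covariate cannot tell egg RNA and genotype apart.

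In 4 further neighbours both libraries numbered 2 were the highest, as they were for the summed liver genes. They were FGG, the gamma chain of fibrinogen made in liver and itself on the liver list, CPB2, a plasma carboxypeptidase, CYP4V2 and the hedgehog inhibitor HHIP. FGG was at 1.002, 47.1 and 4.95 CPM in wild type and 0.400, 94.2 and 2.17 CPM in the mutant. CPB2 was at 0.0911, 4.18 and 0.376 CPM in wild type and 0.0421, 6.16 and 0.138 CPM in the mutant. Their log2 fold changes of 0.87 (SE 1.95) and 0.45 (SE 1.84) were smaller than their errors. The part of egg or liver RNA in any of these values was not tested.

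**Figure D5:**
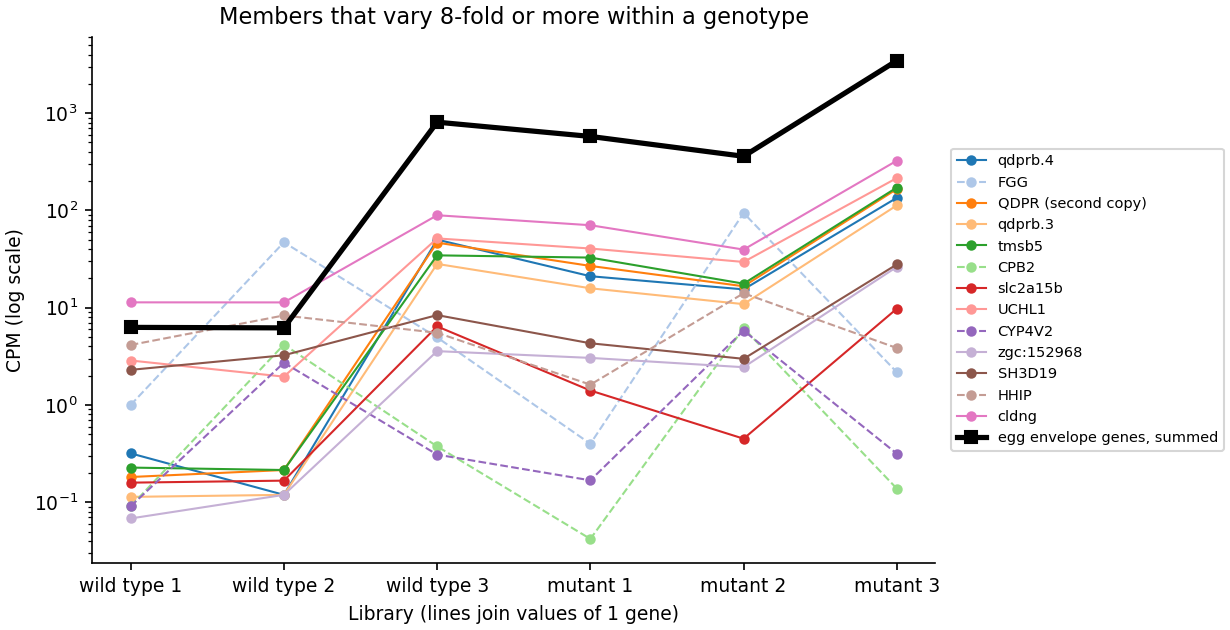
CPM (log axis) in each of the 6 libraries for 13 named neighbours, each gene a line. These vary 8-fold or more within a genotype after 0.1 CPM is added to each value. Solid lines peak in libraries 3 and dashed lines in libraries 2. The heavy black line is the summed level of 12 egg envelope genes. UCHL1, cldng and tmsb5 follow the black line, while FGG and CPB2 peak in both libraries numbered 2.

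With the replicate number as a block, 6 neighbours passed (2.41%, 3 higher and 3 lower) against a background of 2.14% (1.17% higher and 0.964% lower), and 2.304% of the other chromosome 1 genes. DESeq2 called 9 neighbours (3.23%), 1 higher and 8 lower, against a background of 4.13% (1.67% higher and 2.46% lower). Beside PRSS12 and GTF2F2 these were IRS2, TMEM144, SLC25A4, PNPLA4, si:dkey-6o1.2, FABP2 and cars2, at adjusted p (DESeq2) of 4.92e-06 to 0.0471. Without both libraries numbered 3, edgeR called 7 neighbours (2.85%, 6 higher and 1 lower) against a background of 1.43% (1.14% higher and 0.289% lower). The 6 that were higher, UCHL1, tmsb5, zgc:152968 and the 3 genes of the qdprb locus, belong to those whose highest libraries are numbered 3. Among the libraries left, the summed egg level was 6.28 and 6.21 CPM in wild type and 576 and 360 CPM in the mutant. With the summed egg level as a covariate 1 neighbour passed, PRSS12, which was lower (0.402%), against a background of 0.178% (0.128% lower).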

How the data were processed

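The authors deposited 1 table of raw counts for each of the 6 libraries, with Ensembl gene IDs and exon positions on GRCz10. Per the submitters' processing notes, Trimmomatic 0.36, STAR 2.5.2b and the build GRCz10 were used. How reads were counted, with which annotation and strand setting, is not given in the sources used here, so overlapping and antisense genes may share reads. A table of Ensembl IDs and symbols named 333 of the 368 neighbours.

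Counts were tested in R 4.3.3 with edgeR 4.0.16: filterByExpr by genotype, TMM scaling and a two-sided quasi-likelihood F test over all 21893 genes kept, with Benjamini-Hochberg adjustment and a threshold of 0.05. The SE is the log2 fold change over the square root of F. DESeq2 1.42.0 and other settings served as alternatives. Distance is the gap between gene spans. Spreads used log2(CPM + 0.1). The scripts were tested on simulated data. The chi-square per degree of freedom between libraries of a genotype was 51.9 to 154, so none is a copy of another.

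Position alone set which genes count as neighbours. The choice of this window as a subject, the lists and the role groups were made with earlier results of these data known. The genes named are those past the threshold, the 5 nearest on each side, those with the smallest p up to 25 in all, the 8 with the highest level per length, the neighbours near TET2 in humans, and the 5 with the largest changes among those called only with the block or in DESeq2. The others, such as the flanking genes, the role groups and the genes of wide spread, were chosen after their values were seen.

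The libraries of a genotype are numbered 1 to 3, and the labels do not say what a number stands for. Over 15419 genes, deviations from the genotype mean correlated at r = 0.279, 0.341 and 0.605 for same-numbered libraries and at -0.415 to 0.152 for the others. Deviations from a genotype mean cancel out over its libraries, so positive values for same numbers partly force the others down. The numbers were used to pair the libraries in the block fit only, not in the main fit. This pairing was read from the data, not the design. Libraries 3 held the most egg RNA of their genotype, whose part in these correlations was not tested.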

Additional observations from a re-analysis of the deposited data

How the results depend on the processing

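Scaling by DESeq2's size factors left 2 neighbours called (0.803%, against 0.279% of all genes tested). DESeq2 called 9 (1 higher, 8 lower; 3.23%, and 5.28% of other chromosome 1 genes). With no filter on low counts 1 was called (1 lower, 0.296%, against 0.229% of all genes tested), PRSS12. The median absolute log2 fold change of the neighbours was then 0.29. With the replicate block 6 were called (3 higher; 2.41%, against 2.304% of other chromosome 1 genes). Without both libraries numbered 3, 7 were called (6 higher, 1 lower; 2.85%) and the median log2 fold change was 0.0015. With the egg covariate 1 was called (1 lower, 0.402%, against 0.271% of other chromosome 1 genes and 0.178% of all genes tested). The median was then -0.0032 and the median absolute value 0.29. Windows of 5 and 2 Mb held 0 calls (0 lower, 0%, against 0.301% of all genes tested). Leaving out each library in turn gave 0 to 0 calls (0 to 0 lower, 0% to 0%). Of other chromosome 1 genes 0% to 0.133% passed, and of all genes 0.0088% to 0.067%. The neighbours had medians of 0.0016 to 0.075 and median absolute values of 0.20 to 0.26. Fewer libraries enter each of these fits.

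Of 527 values of 44 named genes under the alternatives, 472 kept their direction and side of the threshold, 15 no longer passed, 13 passed where they had not and 27 changed direction, in 9 genes whose log2 fold changes were mostly near 0. The cause was not tested. Changes of direction were -0.38 for cdkn2a/b without both libraries numbered 3, 0.0048 for NDUFB6 and -0.017 for si:dkey-27h10.2 with the replicate block, and 0.0035 and 0.0028 for ASAH1 by DESeq2's size factors and DESeq2, and 0.043 without both libraries numbered 3. With the egg covariate they were -0.11 for toporsa, 0.32 for NDUFB6, 0.071 for ASAH1, 0.13 for DNAJB14 and -0.25 for cldng. Leaving out 1 library gave ranges of -0.28 to 0.33 for cdkn2a/b, -0.00049 to 0.17 for toporsa, -0.16 to 0.14 for NDUFB6, -0.13 to 0.50 for ARHGEF38, -0.22 to 0.12 for si:dkey-27h10.2, -0.10 to 0.23 for anxa5b and -0.10 to 0.061 for ASAH1. The replicate block changed no call among the named genes other than IRS2, UCHL1, cldng and zgc:152968.

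Changes of neighbours near the floor of 0.0593 to 0.0716 CPM in both genotypes were not detectable at this depth, and 119 neighbours were untested for low counts. With 3 libraries a genotype, the 95% interval of 156 of the 249 tested left out a change of 2-fold or more in either direction; that of the others did not.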
